A study of Mus musculus with 8 samples.

Results

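The genes described here are 41 regulators of pre-mRNA splicing, taken by gene symbol from a fixed list and found among the 23284 genes of an RNA sequencing table of mouse P19 embryonal carcinoma cells. They are 12 SR and Tra2 genes, 14 hnRNP genes including the polypyrimidine tract binding proteins, 4 Clk kinases and 11 other regulators, and all 41 had a mean FPKM of at least 1, so that all entered the tests. FPKM is the number of sequenced fragments of a gene divided by its transcript length and by the size of the library, which permits levels of genes of unequal length to be compared. P19 cells received a control siRNA or one directed at Upf3a, a factor of nonsense-mediated decay, and 24 h after transfection both arms were given actinomycin D, which blocks transcription. RNA was taken at 0, 15, 105 and 225 min of the drug, giving 8 conditions. The labels list 2 cultures for each condition, but each gene had 1 FPKM value per condition. How the cultures enter that value is not stated, and the spread between cultures cannot be seen. Every condition shared the same cell line and the same drug, and the knockdown was transient and partial. In bulk RNA, fewer cells of a type and less RNA per cell cannot be told apart.

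SR proteins bind exonic enhancers through RNA recognition motifs and recruit the spliceosome through arginine and serine rich domains, while hnRNP proteins often act as silencers of the same exons. The Clk kinases phosphorylate the arginine and serine rich domains and thereby release SR proteins from nuclear speckles. Many of these regulators limit their own level: excess protein promotes inclusion of a poison exon, an alternative exon holding an early stop codon, or the use of an unproductive 3' end, and the resulting transcript is destroyed by nonsense-mediated decay. UPF3A is a paralog of UPF3B, which links the exon junction complex to the UPF1 and UPF2 decay machinery, and both an inhibiting and a supporting role in decay have been described for UPF3A.

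In the GENCODE vM21 annotation of GRCm38, the build named mm10 in the submitters' processing notes, 35 of the 41 genes (85.4%) had at least 1 transcript classed as a target of nonsense-mediated decay, against 29.8% of the 11005 protein-coding genes tested. The list was drawn up as splicing regulators, many with poison exons, so this share is not independent of the choice of genes. Transcripts with a retained intron were annotated for 36 of the 41 genes (87.8%), against 61.0% of the protein-coding genes tested. The regulators also had more annotated transcripts per gene, a median of 11 against 5. Both shares were not adjusted for that number. A poison cassette exon was taken as an exon of such a decay transcript that lies inside an intron of the gene's main coding transcript and holds the stop codon. By this definition 28 such exons were found in 16 of the genes. The sequences below run from the first base of the cassette exon to the end of its annotated stop codon, in the sense of the gene, with the stop codon in capitals. They are shown because they hold the early stop codons of the annotated decay transcripts, and they cover genes whose FPKM rose, fell or did not pass the test after the knockdown.
Rbm25, chr12:83651646-83651655, plus strand: gttgggaTGA
Srsf3, chr17:29039454-29039487, plus strand: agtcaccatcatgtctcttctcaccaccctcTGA
Srsf9, chr5:115328347-115328428, plus strand: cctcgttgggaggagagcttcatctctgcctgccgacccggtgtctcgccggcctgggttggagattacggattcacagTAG
Tra2b, chr16:22259181-22259261, minus strand: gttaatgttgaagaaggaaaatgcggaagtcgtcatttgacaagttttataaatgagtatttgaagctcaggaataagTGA
Tra2a, chr6:49252965-49253108, minus strand: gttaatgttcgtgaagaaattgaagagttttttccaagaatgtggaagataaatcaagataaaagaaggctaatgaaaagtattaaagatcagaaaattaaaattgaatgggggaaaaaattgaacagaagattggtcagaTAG
Srsf4, chr4:131884276-131884390, plus strand: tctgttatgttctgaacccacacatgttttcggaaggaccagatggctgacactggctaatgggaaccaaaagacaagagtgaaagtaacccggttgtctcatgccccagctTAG
Srsf6, chr2:162932815-162932966, plus strand: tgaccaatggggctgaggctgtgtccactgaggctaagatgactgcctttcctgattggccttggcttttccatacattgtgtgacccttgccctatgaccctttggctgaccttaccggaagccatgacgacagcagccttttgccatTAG
Srsf7, chr17:80205054-80205081, minus strand: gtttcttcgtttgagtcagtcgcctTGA
Snrpb, chr2:130176695-130176752, minus strand: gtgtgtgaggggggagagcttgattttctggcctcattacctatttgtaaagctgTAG
Hnrnpl, chr7:28817335-28817393, plus strand: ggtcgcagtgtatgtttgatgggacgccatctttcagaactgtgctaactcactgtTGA

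The whole cassette exon was 456 bases long in Srsf3, where it lay in intron 3 of the main transcript, and 460 bases long in Srsf7, also in intron 3. It was 207 bases long in intron 1 of Srsf4, 268 bases in intron 2 of Srsf6 and 358 bases in intron 1 of Srsf9. In Tra2a and Tra2b it lay in intron 1 of both genes, and the parts printed above share their first 9 bases. The FPKM is a sum over all isoforms of a gene, so the values below do not separate transcripts with these exons from those without them.

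Upf3a itself was at 13.6, 14.0, 14.0 and 15.0 FPKM in the control arm at 0, 15, 105 and 225 min and at 5.27, 4.52, 4.76 and 4.16 FPKM in the knockdown arm. Its mean in the knockdown arm was 33.1% of the control mean, and that of Upf3b 79.6%. The 10 markers of P19 embryonal carcinoma and pluripotent cells summed to 2087 to 3485 FPKM in the control arm and 2613 to 4379 in the knockdown arm. Of these 10, 9 had a mean of 1 or more. The 9 fibroblast and smooth muscle markers summed to 23.3 to 40.6 and 23.9 to 42.1 FPKM, the 8 neuronal markers to 64.2 to 87.3 and 52.9 to 70.0, and the 5 blood cell markers to 4.45 to 6.12 and 3.68 to 8.35. Pou5f1, at 1391 to 3153 FPKM, made up most of the sum of the embryonal carcinoma and pluripotent markers. Depth is unknown, since the table holds no counts, and FPKM summed to 537350 to 923333 per condition. The upper confidence limit deposited with the values lay a median 26.9% above the FPKM of these 41 genes.

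The level difference between arms, the mean over the 4 times of the log2 ratio of knockdown to control on the log2(FPKM + 1) scale, was higher in the knockdown arm for 22 of the 41 regulators (53.7%), lower for 1 (2.44%) and not called for 18, by limma at a Benjamini-Hochberg adjusted p below 0.05. The calls took in 26.1% of the 11452 tested genes in the upward and 22.3% in the downward direction. The median difference was 0.14 for the regulators and 0.0046 for all genes. Mean FPKM of the regulators ran from 9.75 to 618, while the genes tested reach down to 1, and the shares were not matched for abundance. With a minimum mean FPKM of 5 the median was 0.018 for all genes and 0.14 for the regulators. The FPKM was higher in the knockdown arm at all 4 times for 23 regulators (56.1%), against 31.8% of all genes, and lower at all 4 times for Srsf4 and Srsf10, against 28.7% of all genes. A called rise of 0.3 or more was seen for 11 regulators (26.8%), against 12.1% of all genes. For 11 regulators (26.8%) every knockdown value lay above every control value, against 8.36% of all genes, and for none did the reverse hold, against 5.39%. Scaling to the ribosomal protein genes, to the median of ratios or to quantiles kept the sign of the called differences. The fit takes each time point as a pair of conditions. Without that pairing, 1 regulator (Luc7l, limma adjusted p = 0.048) was called. Markers of cell state moved with the arms as well. Of the 9 embryonal carcinoma and pluripotent markers tested 8 were called higher and none lower. Differences were 1.39 for Fgf5, 1.11 for Tdgf1, 0.99 for Utf1 and 0.87 for T. Of the 6 neuronal markers tested 4 were called lower and none higher, with -0.80 for Elavl3, -0.60 for Snap25 and -0.53 for Syp. Of the 5 fibroblast and smooth muscle markers tested 1 was called higher and 1 lower, and of the 2 blood cell markers 1 was called higher. Of the regulators only Rbm25 differed by as much as these named markers, while other markers moved less. Over all those tested, differences ran from 0.13 to 1.39 for the embryonal carcinoma and pluripotent markers and from -0.80 to 0.063 for the neuronal markers. The part of cell state or of other cells in the regulators' differences was not tested.

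**Figure D1:**
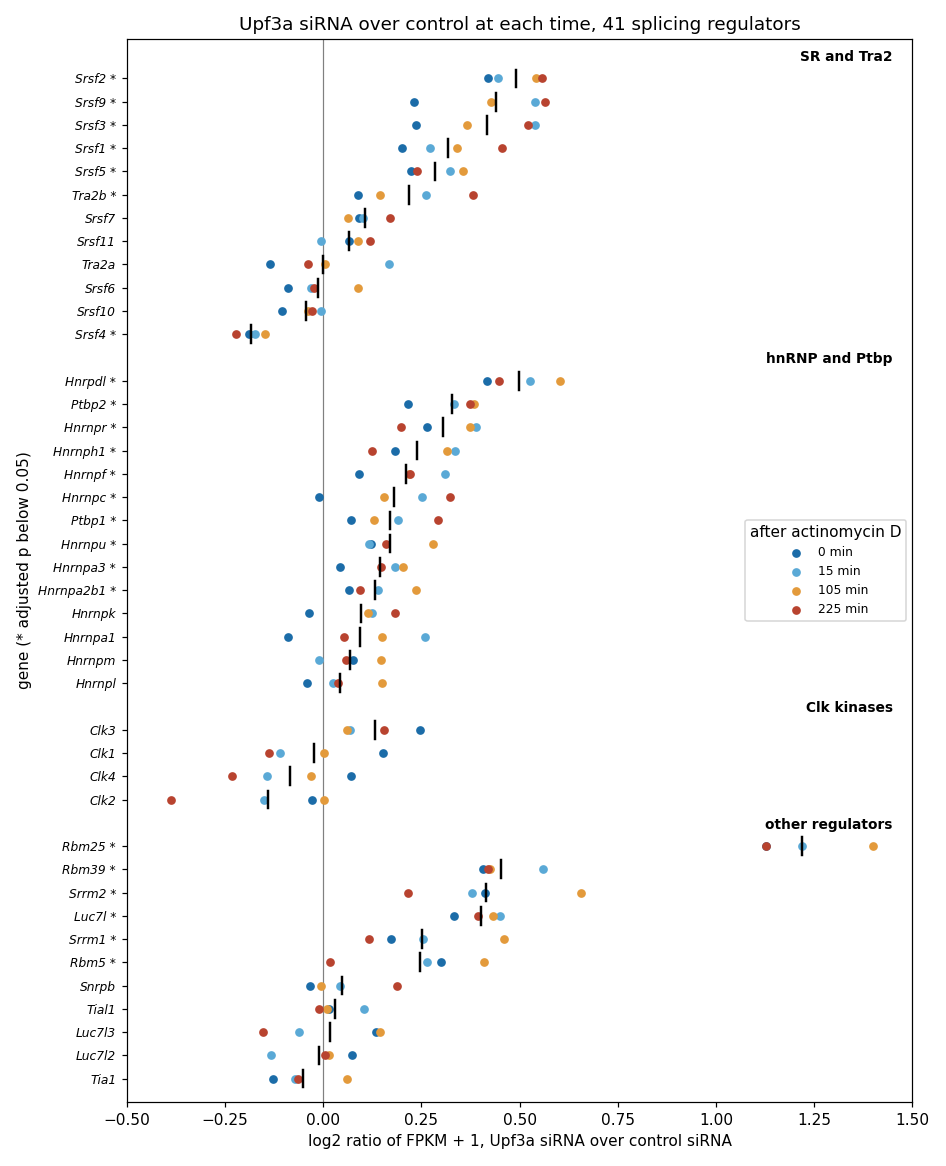
Log2 ratio of knockdown to control on the log2(FPKM + 1) scale for each of the 41 regulators, 1 point per time point and a black bar at their mean, with genes grouped by class and called genes marked by a star. Rbm25 stands to the right of all others near 1.22, most hnRNP genes lie to the right of 0, and the Clk kinases lie around 0.

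Of the 12 SR and Tra2 genes, 6 rose (50%), Srsf4 fell (8.33%) and 5 were not called, with a median difference of 0.16. Of all genes 26.1% were called higher and 22.3% lower. Srsf2, an SR protein that recognises exonic enhancers and sits in nuclear speckles, was at 289.6, 288, 334 and 366 FPKM in the control arm at 0, 15, 105 and 225 min and at 388, 392, 487 and 539 in the knockdown arm. The FPKM values of the arms did not overlap, and the difference was 0.49 ± 0.044 (SE, n = 4 time points, limma adjusted p = 2.2e-04). Here and below, overlap refers to the FPKM values of the arms and not to their deposited limits, which overlapped for Srsf2 at each time. Srsf9 was at 71.4, 67.8, 82.6 and 93.1 FPKM in the control arm and 83.9, 99.1, 111 and 138 in the knockdown arm, a difference of 0.44 ± 0.062 (limma adjusted p = 0.0013). Its levels climbed over the course in both arms, so the arms overlapped although the knockdown value was the higher at each time. Srsf3, a small SR protein with a role in mRNA export, was at 151, 119, 121 and 110.4 FPKM in the control arm and 179, 174, 157 and 159 in the knockdown arm, with no overlap and a difference of 0.42 ± 0.06 (limma adjusted p = 0.0013).

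Srsf1, the prototype of the family, was at 114, 101, 91.1 and 81.1 FPKM in the control arm and 131, 123, 116 and 112 in the knockdown arm. The knockdown value exceeded the control value at each time, by more at 225 min than at 0 min, and the mean difference was 0.32 ± 0.052 (limma adjusted p = 0.0024). Srsf5 was at 109, 105, 119.7 and 121 FPKM in the control arm and 128, 131, 154 and 143 in the knockdown arm, without overlap, a difference of 0.29 ± 0.044 (limma adjusted p = 0.0018). Tra2b, which binds GAA-rich enhancers, rose by 0.22 from 118, 102, 113 and 104 FPKM in the control arm to 125, 123, 125 and 135 in the knockdown arm. Its call was lost when the 15 min time point was left out (limma adjusted p = 0.061). Its paralog Tra2a differed by -0.00084 and was not called.

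Srsf4 was the regulator that fell. It was at 56.1, 56.0, 57.4 and 51.2 FPKM in the control arm and 49.1, 49.5, 51.7 and 43.8 in the knockdown arm, a difference of -0.18 ± 0.04 (limma adjusted p = 0.008). The knockdown value was the lower at each time, while the ranges of the arms overlapped. Scaled to the ribosomal protein genes the difference was -0.11 and no longer called (limma adjusted p = 0.19). Srsf6 at -0.014 and Srsf7 at 0.11 were not called, nor were Srsf10 and Srsf11. In the annotation 14 of the 41 regulators share exonic bases with another gene, to which some of their reads may belong. Srsf2 shares 460 exonic bases with Mettl23 and 288 with Mfsd11, and Srsf4 shares 1532 with Gm12992. Of the called hnRNP genes, Hnrnpu shares 804 with Cox20, Hnrnpr 715 with Gm27022, and Ptbp1 437 with Gm17134 and 251 with Plppr3. Each of these partner genes lies on the other strand, and the sources used here do not give whether counting used strand.

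**Figure D2:**
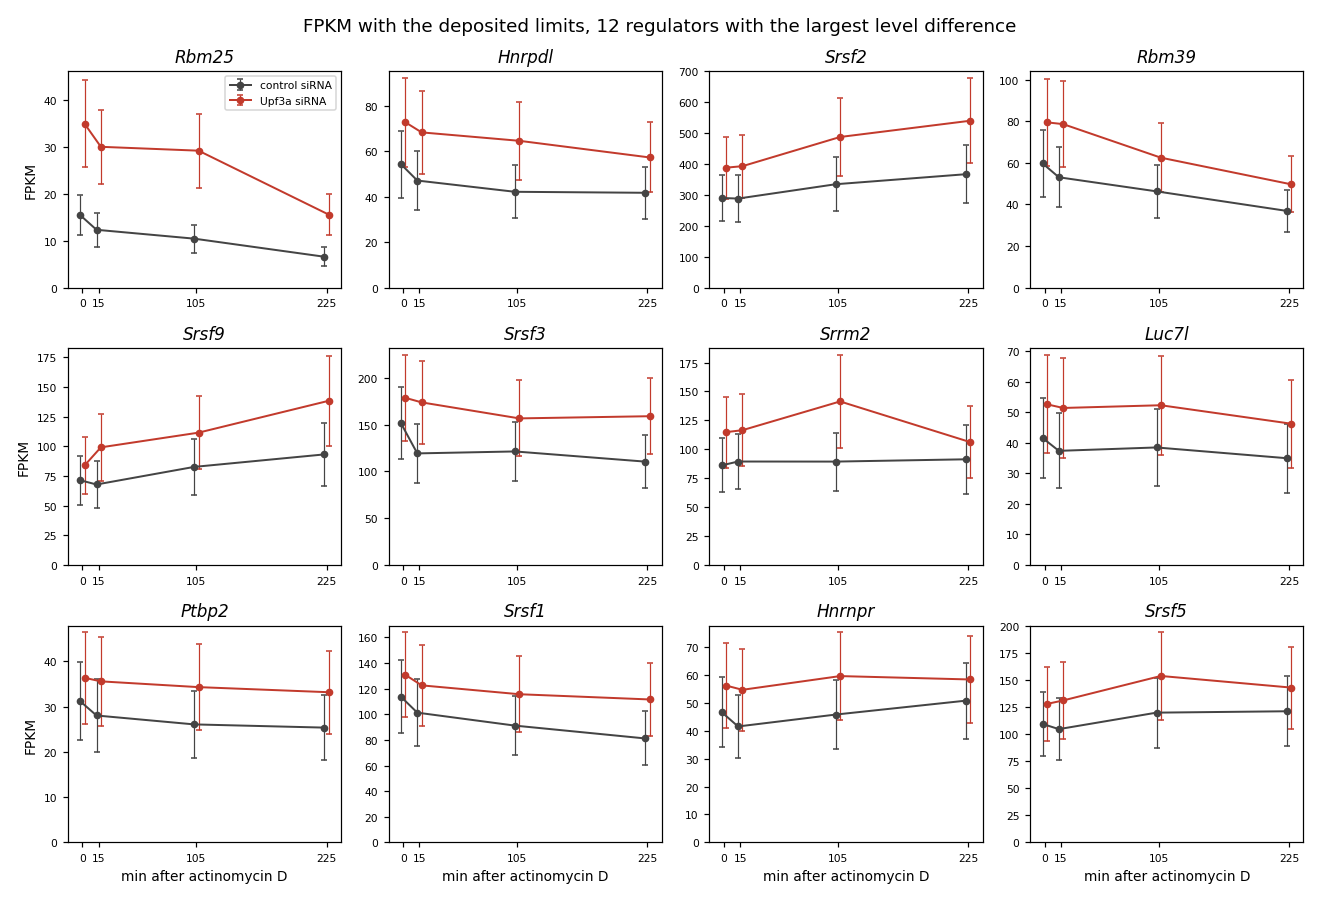
FPKM of the 12 regulators with the largest level difference between arms, plotted against minutes of actinomycin D, 1 panel per gene with its own axis, control siRNA and Upf3a siRNA as separate lines and the deposited confidence limits as bars. The knockdown line lies above the control line at all 4 times in each panel, while the bars of the arms are apart at all times only for Rbm25.

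Of the 14 hnRNP and polypyrimidine tract binding genes, 10 rose (71.4%) and none fell, against 26.1% and 22.3% of all genes. Their median difference was 0.17. Hnrpdl, the hnRNP D-like protein, was at 54.3, 47.1, 42.2 and 41.7 FPKM in the control arm and 72.8, 68.3, 64.6 and 57.3 in the knockdown arm, without overlap, a difference of 0.50 ± 0.047 (limma adjusted p = 2.6e-04). Ptbp2, the neuronal counterpart of Ptbp1 whose RNA is held down in other cells through an exon that Ptbp1 skips, was at 31.2, 28.0, 26.1 and 25.3 FPKM in the control arm and 36.3, 35.6, 34.3 and 33.2 in the knockdown arm, a difference of 0.33 ± 0.046 (limma adjusted p = 0.0012). Its knockdown values all lay above its control values. Hnrnpr was at 46.6, 41.5, 45.8 and 50.8 FPKM in the control arm and 56.2, 54.7, 59.6 and 58.4 in the knockdown arm, again without overlap, a difference of 0.31 ± 0.048 (limma adjusted p = 0.0021).

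The other called hnRNP genes moved less. Hnrnph1 and Hnrnpf, related binders of G-rich runs, differed by 0.24 and 0.21. The differences were 0.18 for Hnrnpc, which binds U-rich tracts, 0.17 for Ptbp1, 0.17 for Hnrnpu, 0.14 for Hnrnpa3 and 0.13 for Hnrnpa2b1. These last 5 genes were not called in at least 1 fit that left out a single time point, with limma adjusted p from 0.057 to 0.17 there, and their sign did not change. Hnrnpa2b1 and Hnrnpc were called in only 6 of 14 alternative fits each, Hnrnpa3 in 7 of 13, Ptbp1 in 9 of 13 and Hnrnpu in 11 of 14. With a pseudocount of 0.1 in place of 1, Hnrnpa2b1 (limma adjusted p = 0.062) and Hnrnpc (limma adjusted p = 0.061) were no longer called. Hnrnpa1, Hnrnpk, Hnrnpl and Hnrnpm were not called, and Hnrnpl differed by 0.043. Ptbp1 lay at a locus of 47 genes in the table, and Hnrnpa1, Hnrnpa3 and Hnrnpk at loci of 2 or 3 genes, so that reads may be divided among them.

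Among the 11 other regulators 6 rose (54.5%) and none fell, against 26.1% and 22.3% of all genes, with a median difference of 0.25. Rbm25, an RNA-binding protein with an arginine and glutamate rich domain that associates with the U1 snRNP, was the regulator with the largest difference. It was at 15.5, 12.4, 10.5 and 6.60 FPKM in the control arm and 35.0, 30.1, 29.3 and 15.6 in the knockdown arm, so that even the lowest knockdown value, at 225 min, lay just above the highest control value, at 0 min. The difference was 1.22 ± 0.057 (SE, n = 4 time points, limma adjusted p = 4.7e-05), a 2.33-fold higher level on the FPKM + 1 scale. Its deposited limits were apart between the arms at all 4 times, as for 0.288% of all genes in that direction. It was the only regulator with limits apart at any time, while 2.05% of all genes had them apart at 1 or more times in that direction and 0.908% in the other. The ratio was already 1.13 log2 units at 0 min, before transcription was blocked, and stood at 1.22, 1.40 and 1.13 at the later times. Rbm25 shares 166 exonic bases with Gm29361 on the other strand.

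Rbm39, a U2AF-related coactivator of splicing, was at 59.8, 53.1, 46.3 and 36.9 FPKM in the control arm and 79.5, 78.6, 62.5 and 49.7 in the knockdown arm, a difference of 0.45 ± 0.045 (limma adjusted p = 3.1e-04). Both arms fell over the course and their ranges overlapped, with the knockdown value the higher at each time. Srrm2, a large scaffold of nuclear speckles, was at 86.2, 89.5, 89.4 and 91.4 FPKM in the control arm and 115, 117, 141 and 106 in the knockdown arm, without overlap, a difference of 0.41 ± 0.07 (limma adjusted p = 0.0027). It lay at a locus of 2 genes in the table. Luc7l, a homolog of a yeast U1 snRNP component, was at 41.6, 37.4, 38.5 and 35.0 FPKM in the control arm and 52.6, 51.4, 52.3 and 46.3 in the knockdown arm, also without overlap, a difference of 0.40 ± 0.042 (limma adjusted p = 3.8e-04). Srrm1, a coactivator of splicing, and Rbm5 each differed by 0.25. Rbm5 was not called when the 0, 15 or 105 min time point was left out (limma adjusted p from 0.056 to 0.075). Luc7l2 and Luc7l3, the RNA-binding proteins Tia1 and Tial1, and the core snRNP protein Snrpb, at 0.047, were not called.

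None of the 4 Clk kinases was called, against 48.4% of all genes called in either direction. The difference was -0.023 for Clk1, -0.14 for Clk2, 0.13 for Clk3 and -0.085 for Clk4. The values for Clk3 passed the threshold in 5 of 14 alternative fits and those for Clk2 in 1 of 14. The sign for Clk1 changed with the scaling. Across all 18 uncalled regulators the difference ranged from -0.14 to 0.13.

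The same direction was already present before the drug. At 0 min the knockdown value was above the control value for 30 of the 41 regulators with a median ratio of 0.092, and at 15, 105 and 225 min for 30, 37 and 31 with medians of 0.18, 0.15 and 0.15. Of all genes 48.3%, 53.7%, 51.1% and 51.6% had the higher value in the knockdown arm at these 4 times. The median over all genes stayed between -0.008 and 0.022. Of the 16 regulators with a poison cassette exon as defined above 7 rose and 1 fell, with a median difference of 0.087. Of the 25 without such an exon 15 rose, with a median of 0.17. These 25 are not free of decay isoforms: Srsf1, Srsf2, Srsf5, Hnrpdl and Ptbp2 among them each have at least 1 annotated decay transcript. Of the 35 with any annotated decay transcript 18 rose (51.4%), and of the 6 without one 4 rose. Among all protein-coding genes tested 26.9% of those with a decay transcript and 26.3% of those without one were called higher. Whether regulators with and without a cassette exon of this definition differ was not tested.

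The rest of the splicing machinery was read from lists of genes outside the 41, against 26.1% of all genes called higher and 22.3% lower. Of 52 tested U snRNP proteins and splice site factors, 21 rose (40.4%) and 2 fell (3.85%), with a median of 0.094, including Snrpa1 at 0.45, Dhx16 at 0.38 and Sf3a3 at 0.35. Of 59 tested splicing regulators outside the 41, 15 rose (25.4%) and 8 fell (13.6%), with a median of 0.036, a share of rises close to that of all genes. They included Rbm17 at 0.66, Pspc1 at 0.61 and Mbnl2 at -0.53. Of 10 tested kinases and importers of SR proteins other than the Clk family 1 rose (10%), Hipk2 at 0.29, and none fell. Of 12 factors of nonsense-mediated decay 2 rose (16.7%) and 5 fell (41.7%), among them Smg1 at 0.25, Upf2 at -0.31 and the targeted Upf3a at -1.42.

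With transcription blocked, the slope of log2(FPKM + 1) per hour measures how fast an mRNA was lost against the bulk of genes. FPKM has no outside standard. The bulk here is the typical gene and not the sum of mRNA. Scaling factors by the median of ratios stayed between -0.036 and 0.041 log2 units, while FPKM summed to 537350 to 923333 per condition. A positive slope means a slower loss than the typical gene and not a gain of molecules. Over both arms 20 of the 41 regulators (48.8%) gained against the bulk, 16 (39%) were lost and 5 were not called by limma, against 42.7% and 38.6% of all genes and 81.3% called in either direction. All 4 Clk kinases were lost with a median slope of -0.36, 11 of 14 hnRNP genes gained and 2 were lost with a median of 0.11, 6 SR and Tra2 genes gained and 3 were lost, and 3 of the other regulators gained and 7 were lost. The median slope over all genes was 0.014. Scaled to the ribosomal protein genes the all-gene median became -0.24, and all 41 regulators were then lost and none gained. Under quantile normalisation the all-gene median was 0.032, while 1 regulator gained and 34 were lost with a median over the 41 of -0.098. The count of regulators that gained therefore depends on the scaling, also where the bulk of genes stays near 0.

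**Figure D3:**
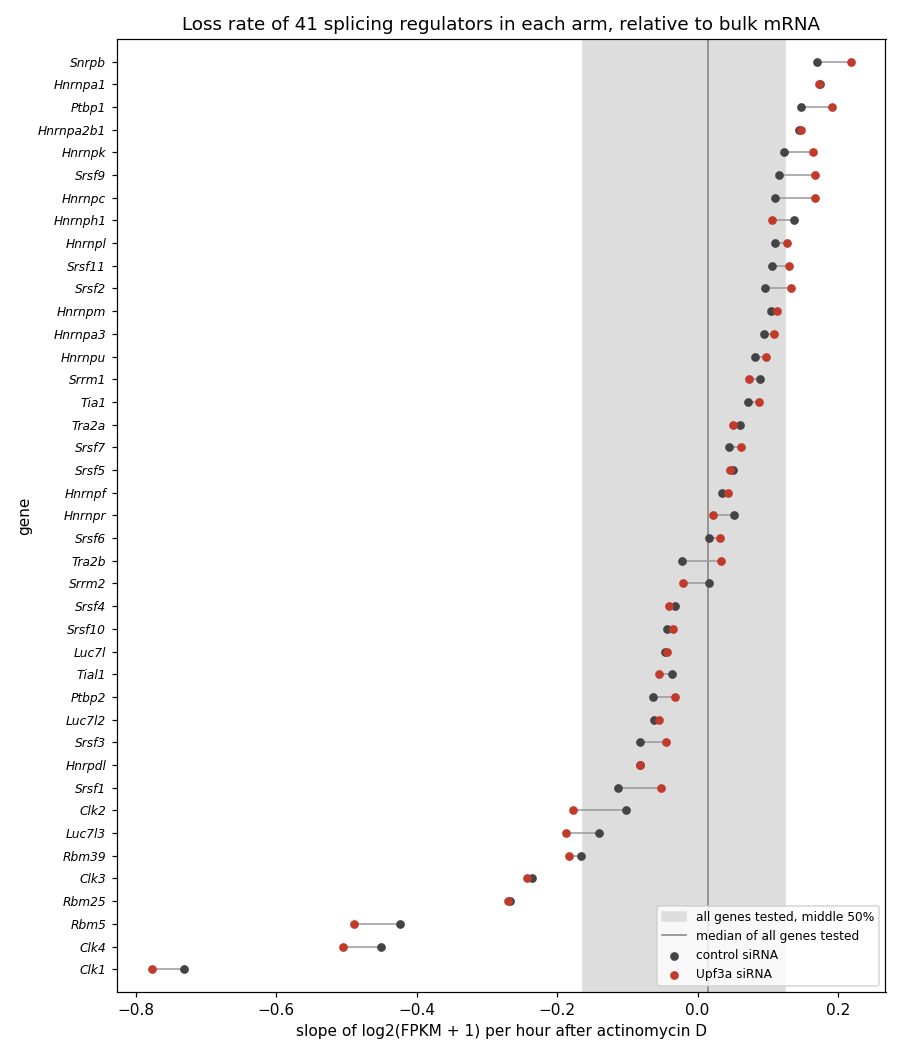
Slope of log2(FPKM + 1) per hour of actinomycin D (horizontal axis) for each of the 41 regulators, 1 point for the control siRNA arm and 1 for the Upf3a siRNA arm, joined by a line, with the median and the middle 50% of all genes tested in grey. Clk1 lies far to the left near -0.75, followed by Clk4 and Rbm5 and then Rbm25 and Clk3, and the points of the arms of a gene lie close together.

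Clk1, the kinase that frees SR proteins from speckles, was the regulator lost fastest. It was at 24.8, 21.3, 4.47 and 3.18 FPKM in the control arm at 0, 15, 105 and 225 min and at 27.7, 19.6, 4.48 and 2.80 in the knockdown arm, with a slope of -0.75 ± 0.10 log2 units per hour (SE, limma adjusted p = 1.6e-04). By 225 min 12.8% of its 0 min FPKM was left in the control arm and 10.1% in the knockdown arm, and most of that fall lay between 15 and 105 min. Clk4 was at 15.4, 14.7, 5.25 and 4.48 FPKM in the control arm and 16.2, 13.2, 5.11 and 3.66 in the knockdown arm, a slope of -0.48 ± 0.065 (limma adjusted p = 1.8e-04). It followed the same course, with 29.1% and 22.6% left at 225 min. Clk2 was at 17.2, 17.9, 12.5 and 13.7 FPKM in the control arm and 16.8, 16.0, 12.5 and 10.2 in the knockdown arm, a slope of -0.14, and Clk3 had a slope of -0.24. These kinases were lost more slowly, with 79.9% of Clk2 and 53.5% of Clk3 left at 225 min in the control arm.

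Rbm5, which regulates exons of apoptosis genes, was at 23.4, 21.5, 13.8 and 7.05 FPKM in the control arm and 29.0, 26.0, 18.7 and 7.14 in the knockdown arm, a slope of -0.46 ± 0.026 (limma adjusted p = 2.2e-06). The arms, apart at 0 min, were nearly level at 225 min, when 30.1% and 24.6% of the 0 min FPKM was left. Rbm25, higher in the knockdown arm throughout, was lost at -0.27 ± 0.03 log2 units per hour (limma adjusted p = 5.8e-05), with 42.7% left in the control arm and 44.6% in the knockdown arm. Rbm39 had a slope of -0.17 and Luc7l3 one of -0.16. These 4 genes and the 4 Clk kinases were called lost in all 12 alternative fits run for this comparison.

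Snrpb, a core component of the spliceosomal snRNPs, had the largest positive slope, 0.19 ± 0.019 (limma adjusted p = 2.7e-05). Its FPKM was 522, 484, 647 and 768 in the control arm and 509.7, 498, 644 and 874 in the knockdown arm, so that it reached 147% and 172% of its 0 min level. Hnrnpa1, an abundant silencer of exons, was at 263, 237, 288 and 392 FPKM in the control arm and 247, 284, 320.1 and 407 in the knockdown arm, a slope of 0.17 ± 0.02 (limma adjusted p = 6.3e-05). Ptbp1 was at 344, 318, 414 and 478 FPKM in the control arm and 361, 363, 454 and 585 in the knockdown arm, a slope of 0.17 ± 0.018 (limma adjusted p = 4.1e-05). In both arms these abundant mRNAs ended the course above their 0 min level relative to the typical gene, not to the sum of mRNA. Hnrnpa2b1 was at 396, 361, 410.4 and 554 FPKM in the control arm and 414, 398, 483 and 590.4 in the knockdown arm, a slope of 0.15 ± 0.019 (limma adjusted p = 1.3e-04). The SR genes lay between these extremes, with 0.14 for Srsf9, 0.11 for Srsf2, -0.064 for Srsf3 and -0.083 for Srsf1. The slopes of Snrpb, Hnrnpa1, Ptbp1, Hnrnpa2b1 and Srsf2 turned negative under scaling to the ribosomal protein genes and under quantile normalisation.

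**Figure D4:**
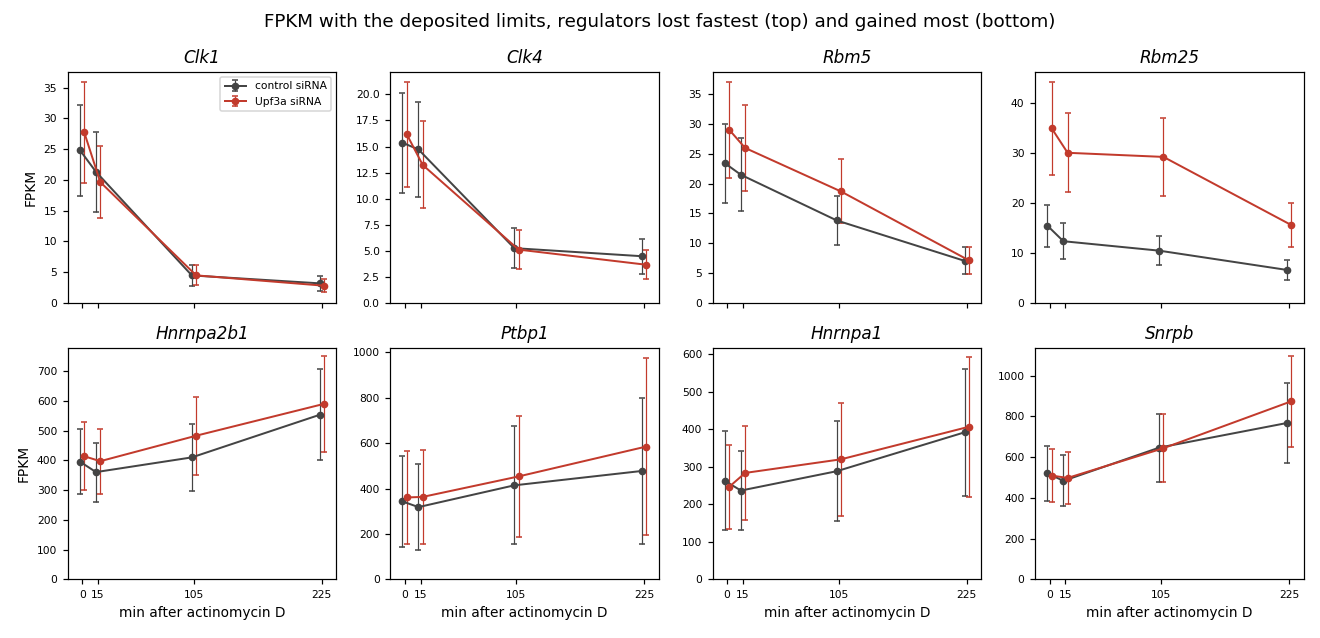
FPKM against minutes of actinomycin D for the 4 regulators lost fastest (top) and the 4 with the largest positive slope (bottom), each panel with its own axis, control siRNA and Upf3a siRNA as separate lines and the deposited confidence limits as bars. Clk1 falls to 3.18 and 2.80 FPKM in the control and knockdown arms, and Snrpb climbs to 768 and 874.

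The series asked whether loss of Upf3a alters transcript stability, which corresponds to the difference in slope between arms. By limma no regulator was called for this difference, and 1 of all 11452 genes (0.00873%) was called. An unadjusted limma p below 0.05 was held by 0 regulators and by 762 of all genes. Without the 15 min time point 4 regulators had one, against 1103 of all genes, and without the 105 min time point 2, against 941. Leaving out the 0 or the 225 min time point gave 0 regulators. A fit with a trend and robust variance also called 0 regulators. The estimates ran from -0.076 to 0.061 log2 units per hour with limma adjusted p from 0.75 to 0.9999. The 95% interval of a regulator, not adjusted for the number of genes, reached a median 0.077 to either side of the estimate. Smaller differences, and also larger ones under the adjusted threshold, could therefore be missed. Srsf1 had the largest positive value, 0.061 (95% interval -0.0052 to 0.13), from slopes of -0.11 in the control and -0.053 in the knockdown arm. Tra2b had 0.055 (-0.026 to 0.14) and Snrpb 0.048 (-0.023 to 0.12), both on the side of slower loss in the knockdown arm. On the side of faster loss, Clk2 had -0.076 (-0.17 to 0.017), Rbm5 -0.065 (-0.16 to 0.029) and Clk4 -0.054 (-0.14 to 0.029). Each of these 6 intervals includes 0, and without the 225 min time point the sign of the value changed for Tra2b, Snrpb, Clk2 and Rbm5.

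Most regulators had a lower value after the first 15 min of the drug than before it. The FPKM was lower at 15 min than at 0 min for 37 of the 41 regulators in the control arm, against 62.4% of all genes, and for 29 in the knockdown arm, against 49.8%, with 26 lower in both. The median change was -0.11 in the control arm and -0.031 in the knockdown arm, against -0.035 and 7e-05 for all genes. Srsf3 changed by -0.34 in the control arm and -0.04 in the knockdown arm, Rbm25 by -0.30 and -0.21, and Clk1 by -0.21 and -0.48. With 1 value per condition, these changes carry no test.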

How the data were processed

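RNA of P19 cells was sequenced in 8 conditions, and per the submitters' processing notes the authors used TopHat2, Cufflinks and the mm10 build, with versions not given in the sources used here. In the deposited table every gene has a single FPKM for each condition, with lower and upper limits whose level is not stated. How the 2 cultures that the labels list for each condition enter that FPKM is not stated either. No counts could be recovered, since ratios of low FPKM between conditions did not cluster: at most 4.39% of low genes fell into any bin 0.05 log2 units wide. Of all genes 3 had a failed status, none of them among the 41 regulators. The table has 1811 loci shared by several genes, which hold 4287 genes, and 5 of the regulators lie at such loci.

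Tests used log2(FPKM + 1) and the 11452 genes whose mean FPKM reached 1, and fold changes on this scale understate those of low genes. Models were fitted over all of these genes with limma 3.58.1 in R 4.3.3, eBayes without trend, and the threshold was a Benjamini-Hochberg adjusted p below 0.05. The level difference was fitted with time as a block plus arm (3 residual degrees of freedom), the loss rate with arm plus hours (5) and the loss rate difference with time as a factor and an arm by hours term (2). Conditions at the same time share the time of harvest named in the labels, which is the source of the pairing. The p-values rest on how far the time points of an arm depart from the model and take no account of variation among cultures. The fits were also run on simulated data with independent noise at the fitted spread, which cannot test for variation among cultures. Python 3.11.15 with pandas 2.3.3 read the tables, and sequences and transcript classes came from GENCODE vM21.

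Members and gene lists were chosen with earlier results of these data known. Values in every condition are given for the 12 regulators with the largest level difference, the 4 lowest and 4 highest loss rates, the 3 largest moderated t of the loss rate difference in each direction, and regulators with limits apart at 2 or more times. Srsf4 was named in full after its values were seen, as the 1 regulator called lower. From the other lists up to 3 genes are named by moderated t, and 6 listed genes were matched through synonyms. Alternatives were pseudocounts of 0.1 and 5, other filters, 3 other scalings, a trend with robust variance, no block, each time point left out and shared loci left out.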

Additional observations from a re-analysis of the deposited data

Results flagged for a closer look

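Rbm39 had a log2 ratio of knockdown to control of 0.558 at 15 min, while its ratios at the other times lay between 0.406 and 0.425. The value stood apart from the other times by more of the whole range than Dixon's 95% limit for 4 values allows. It was the only such value among the 41 regulators checked, a test that chance passes in about 1 of 20 groups.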

How the results depend on the processing

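Of the 23 called level differences, 15 kept their call under the alternatives run for them except the fit without the replicate block: Srsf1, Srsf2, Srsf3, Srsf5, Srsf9, Hnrpdl, Hnrnph1, Hnrnpf, Hnrnpr, Ptbp2, Rbm25, Rbm39, Srrm1, Srrm2 and Luc7l. Srrm2, at a shared locus, had no value in the fit that left such loci out. Without the replicate block, which pairs the arms by time, 1 regulator was called higher and 0 lower, against 358 and 129 of all genes. Leaving out each time point in turn gave 16 to 20 regulators higher and 1 lower. By unadjusted limma p below 0.05 these fits held 21 to 25 regulators and 5431 to 6013 of all genes. The main fit held 25 and 6381. Regulators called lower numbered 0 scaled to ribosomal protein genes and 3 under quantile normalisation. These scalings changed the split of all genes from 2986 higher and 2557 lower to 3656 and 1188 with ribosomal protein genes and 2757 and 3170 with quantiles.

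The level difference changed sign, scaled to ribosomal protein genes, for Srsf6 (0.064), Tra2a (0.077) and Clk1 (0.056), and under quantile normalisation for Hnrnpl (-0.027). With a time point left out it ranged from -0.048 to 0.012 for Srsf6, from -0.057 to 0.044 for Tra2a and from -0.082 to 0.015 for Clk1. In the loss rate, 0 regulators gained and 41 were lost scaled to ribosomal protein genes, and 1 gained and 34 were lost under quantile normalisation. Of all genes called, 0.39% gained with ribosomal protein genes and 58.4% with quantiles, against 52.5% in the main fit. The slopes with ribosomal protein genes were -0.18 for Srsf2, -0.15 for Srsf9, -0.12 for Hnrnpa1, -0.15 for Hnrnpa2b1, -0.13 for Ptbp1 and -0.10 for Snrpb. With quantiles they were -0.098 for Srsf2, -0.020 for Hnrnpa1, -0.077 for Hnrnpa2b1, -0.053 for Ptbp1 and -0.046 for Snrpb. With a time point left out, 13 to 19 regulators gained and 10 to 15 were lost, the lowest counts being 13 gained without 225 min and 10 lost without 0 min. By unadjusted limma p below 0.05 these fits held 27 to 36 regulators and 7918 to 9529 of all genes. The main fit held 36 and 9416. With a time point left out, the loss rate difference ranged from -0.0057 to 0.079 for Tra2b, from -0.098 to 0.047 for Clk2, from -0.0012 to 0.060 for Snrpb and from -0.078 to 0.075 for Rbm5. The cause of these changes was not tested.

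With 1 FPKM per condition and no counts, the precision set by depth is unknown and the spread between cultures enters none of these values.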
